A study of Mus musculus with 6 samples.

Results

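Genes of cell division and DNA replication were followed in the hearts of mice that carry a transgene for FASN, the enzyme that makes palmitate, and in hearts of control mice. The set was a list of 39 genes, made of 28 mitosis genes and 11 replication genes. For each gene the brightest probe set that the annotation gives to that gene alone was used, which yielded values for 38 of the 39. Ccnb1 had no such probe set, so it has no expression value here. A gene was tested if the mean of log2(signal + 16) over the 6 arrays reached the median of all probe sets, 5.98, which is a signal of 47. The test covered 20 members, 11 of mitosis and 9 of replication, and 18 members were dimmer than this. Over the whole series such a probe set existed for 18193 genes, 11498 of them tested and 6695 dim.

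The hearts of 3 groups were hybridised, each on 2 arrays: the high FASN line, the low FASN line and the B6 control. In both FASN lines the alpha-MHC promoter, a heart muscle cell promoter, drives the transgene. Each level of FASN is represented by a single transgenic line, so level and line cannot be told apart. All animals were male, with C57BL/6J given as the strain, and controls were matched for age, with no age stated in the labels. The tissue label calls all 6 hearts transgenic, controls included, so the groups follow the sample titles. Whether the arrays numbered 1 and 2 were different hearts is not stated. A p-value here therefore reflects array-to-array spread, which could be purely technical.

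A dividing cell first copies its DNA and then separates the copies in mitosis. Cyclins bound to cyclin-dependent kinases drive these steps, the Mcm proteins form the ring-shaped helicase that opens the DNA, and Pcna is the sliding clamp that holds DNA polymerases on it. Later the centromere proteins, kinesins and checkpoint kinases attach and pull the chromosomes, and the anaphase-promoting complex triggers their separation. In the adult mouse heart most muscle cells have left the cell cycle, while endothelial cells, fibroblasts and blood-derived cells keep dividing at low rates. Whole-heart RNA was measured, so fewer cells of a type and less RNA per cell cannot be told apart.

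Fasn itself read 2268 and 2104 in the high FASN line, 462 and 481 in the low FASN line, and 213 and 187 in B6 controls, and the 3 groups did not overlap. The arrays of a group correlated at 0.987 to 0.99 across the tested probe sets, and arrays of different groups at 0.969 to 0.977, with probe sets that are not independent of each other. The heart label was borne out by its muscle genes, with the alpha-myosin heavy chain gene Myh6 between 27487 and 38169 on every array. Signals are in arbitrary units and the small number of arrays limits the precision.

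In the low FASN line 10 of the 20 tested members were higher than in the B6 control and 0 were lower (limma, Benjamini-Hochberg adjusted p below 0.05). Of all 22519 tested probe sets, 13.5% were called higher and 10.8% lower in that comparison. Ccnb2 is counted here although it was bright enough only through the low FASN line. The 10 were the proliferation mark Mki67, Top2a, Ccnb2, Cdc20 and Anln among the mitosis genes, and Mcm3, Mcm5, Mcm7, Pcna and Rrm2 among the replication genes. In the high FASN line 4 members were higher (Mki67, Top2a, Cenpf and Mcm7), against 8.18% of all tested probe sets, and 0 were lower, against 6.18%. At an unadjusted p under 0.05, limma gave 8 members higher and 0 lower in the high FASN line, where 16.7% of all tested probe sets were higher and 12.1% lower. The same cut gave 13 members higher and 0 lower in the low FASN line, against 20.1% and 16.3% of all. Both comparisons use the same control arrays. Directly between the lines, 2 members were higher in the high FASN line (Cenpa and Cenpf; 9.69% of all tested probe sets) and 3 were lower (Ccnb2, Cdc20 and Pcna; 8.87%), while limma gave 2 higher and 9 lower at an unadjusted p under 0.05, against 16.8% and 15.9% of all.

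Over all 38 measured members, dim ones included, the median log2 difference from the B6 control was 0.47 in the high FASN line and 0.67 in the low FASN line. The medians over all 18193 genes were 0.03 and 0.01. The difference was positive for 31 members in the high FASN line and for 36 in the low FASN line, where 54.4% and 50.9% of all genes were positive. For mitosis genes the medians were 0.69 in the high FASN line and 0.92 in the low FASN line, and for replication genes they were 0.1 and 0.54. The low FASN mean was the highest of the 3 group means for 31 members, the high FASN mean for 6 and the control mean for 1. The control mean was the lowest for 30 members.

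**Figure D1:**
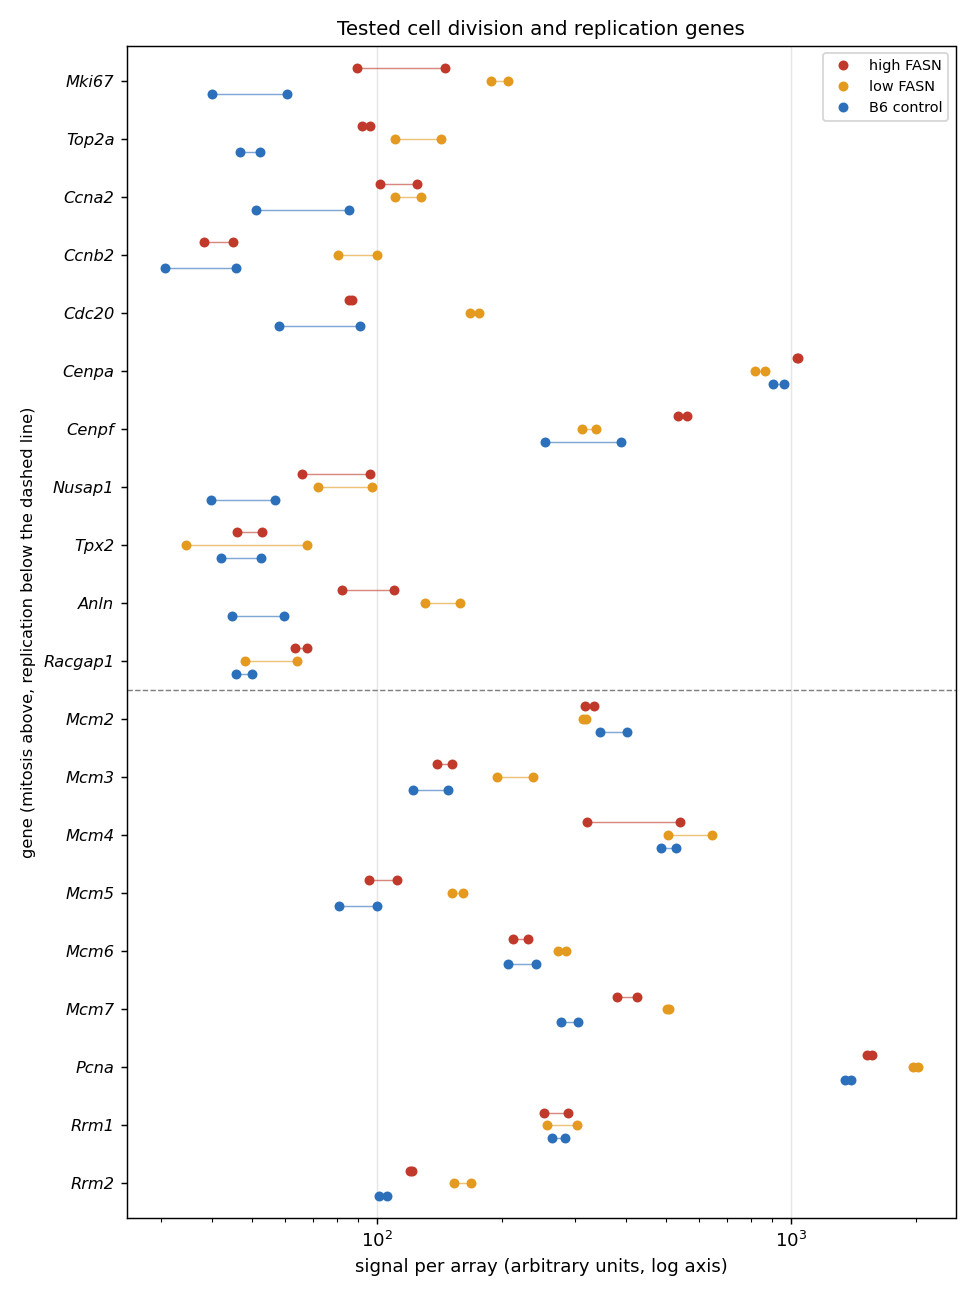
Signal of the 20 tested members on each array, in arbitrary units on a log axis, 1 point per array, with the high FASN line above the low FASN line and the B6 control. Mki67, Top2a, Anln and Mcm7 show both FASN lines to the right of both control arrays, while Cenpa and Cenpf have their highest points in the high FASN line.

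Mki67, a chromosome-coating protein present in cycling cells, had the largest difference in the low FASN line among the tested members. It read 146 and 89.5 in the high FASN line, 189 and 207 in the low FASN line, and 60.5 and 40.0 in controls. Its mean signal was 117.6 ± 39.7 in the high FASN line, 197.7 ± 12.5 in the low FASN line and 50.2 ± 14.5 in the control (SD, n = 2 each). The 3 groups did not overlap, although the high FASN arrays lay far apart. Mki67 rose by 1.71 on the log2(signal + 16) scale in the low FASN line (SE 0.249, adjusted p = 0.00115), a scale that understates the change of dim genes. In the high FASN line it rose by 1.0 (adjusted p = 0.027). That call was lost without either low FASN array, without high FASN replicate 1 (0.69, adjusted p = 0.135) or without B6 control replicate 2 (0.77, adjusted p = 0.16).

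Top2a, the topoisomerase that untangles chromosomes before they part, read 96.1 and 91.8 in the high FASN line, 111 and 143 in the low FASN line, and 52.1 and 46.6 in controls. Both lines lay above both control arrays, and the low FASN line above the high FASN line. Top2a rose by 0.75 in the high FASN line (SE 0.207, adjusted p = 0.0401) and by 1.12 in the low FASN line (SE 0.207, adjusted p = 0.00407). The call in the high FASN line was lost whichever array was left out, with adjusted p values of 0.062 to 0.165, and under quantile normalization, median centring or cyclic loess. The call in the low FASN line was lost without low FASN replicate 2 (adjusted p = 0.0508).

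Cdc20, the activator of the anaphase-promoting complex, and cyclin B2 (Ccnb2), a partner of Cdk1, passed against control in the low FASN line and did not pass in the high FASN line, and the lines differed from each other. Ccnb2 read 44.9 and 38.1 in the high FASN line, 99.7 and 80.4 in the low FASN line, and 30.7 and 45.6 in controls. It reached the limit on brightness through the low FASN line, since its mean lay under it in the other groups, so a difference was built into its being tested. With the limit dropped, neither Ccnb2 call passed (adjusted p = 0.0834 in the low FASN line against control and 0.135 between the lines). Cdc20 read 87.0 and 85.7 in the high FASN line, 176 and 168 in the low FASN line, and 91.1 and 58.1 in controls, so that the high FASN arrays fell within the spread of the controls. In the low FASN line Ccnb2 rose by 0.98 (SE 0.256, adjusted p = 0.0214) and Cdc20 by 1.08 (SE 0.215, adjusted p = 0.00584). The differences in the high FASN line were 0.10 and 0.20 (adjusted p = 0.841 and 0.59). High FASN minus low FASN was -0.88 for each gene (adjusted p = 0.0411 for Ccnb2 and 0.0206 for Cdc20), and both of these calls were lost whichever array of either FASN line was left out. A second probe set of Cdc20 gave -0.17 between the lines and did not pass (adjusted p = 0.606). Against control, the Ccnb2 call was lost without either low FASN array or without B6 control replicate 1 (lowest value 0.78), and the Cdc20 call without low FASN replicate 1 (1.05, adjusted p = 0.0516).

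Cyclin A2 (Ccna2), which acts in S phase and early mitosis, read 101 and 125 in the high FASN line, 127.5 and 110.4 in the low FASN line, and 85.7 and 51.1 in controls. Both lines lay above both controls, but the differences of 0.64 and 0.71 did not pass the test (adjusted p = 0.112 and 0.0594). It passed in the low FASN line without B6 control replicate 1 (1.01, adjusted p = 0.0331). Nusap1, which bundles spindle microtubules, had a like pattern, with differences of 0.59 and 0.65 (adjusted p = 0.169 and 0.103). Tpx2, which activates Aurora A on the spindle, differed by 0.05 in each line (adjusted p = 0.932 in the high FASN line and 0.926 in the low FASN line).

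The 2 tested centromere genes had their highest signals in the high FASN line. Cenpf, a large protein of the outer kinetochore, read 533 and 561 in the high FASN line, 338 and 312 in the low FASN line, and 389 and 255 in controls. The high FASN arrays lay above all others, while the low FASN arrays lay between the controls. Cenpf rose by 0.76 in the high FASN line (SE 0.167, adjusted p = 0.0153), differed by 0.04 in the low FASN line (adjusted p = 0.886), and was higher in the high FASN line than in the low FASN line by 0.72 (adjusted p = 0.0163). Without B6 control replicate 2 the difference of the high FASN line from control was 0.47 (adjusted p = 0.0677), and the difference of the lines was lost without either low FASN array or without high FASN replicate 2 (adjusted p = 0.0509 to 0.108). Cenpa, the histone H3 variant that marks centromeres, read 1032 and 1042 in the high FASN line, 865 and 819 in the low FASN line, and 959 and 905 in controls. It was higher in the high FASN line than in the low FASN line by 0.30 (SE 0.0721, adjusted p = 0.0202), with differences from control of 0.15 and -0.14 that did not pass (adjusted p = 0.199 and 0.183). That difference was lost without low FASN replicate 1 or 2 (adjusted p = 0.0726 and 0.143).

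For cytokinesis, the final splitting of the cell, anillin (Anln) and Racgap1 were bright enough to test. Anln, a scaffold of the contractile ring, read 110.0 and 82.3 in the high FASN line, 130.2 and 159 in the low FASN line, and 44.5 and 59.6 in controls, with no overlap between groups. It rose by 1.24 in the low FASN line (SE 0.224, adjusted p = 0.00362), and this call held in every setting that tested it, each array left out in turn included. Its difference in the high FASN line was 0.72 (adjusted p = 0.0631), which passed without high FASN replicate 2 (0.90, adjusted p = 0.047). Racgap1, which acts at the cleavage furrow, differed by 0.36 and 0.17 (adjusted p = 0.363 and 0.654).

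The other 16 measured mitosis genes were dim, together with the replication genes Tyms and Tk1, and the signals of these 18 members lay between 1.05 and 96.6. In the low FASN line both arrays lay above both control arrays for 15 of the 18 and below for 0, where 19% of all dim genes lay above and 18.3% below. In the high FASN line 9 of the 18 lay above (18.8% of dim genes) and 1, the spindle kinesin Kif11, lay below (17.5%). Between the lines, 1 member was higher on both high FASN arrays than on both low FASN arrays (18.2% of dim genes) and 9 were lower (17%). When the limit on brightness was dropped, 4 of these dim genes passed in the low FASN line against control, where 5.22% of all 45037 probe sets were higher and 4.25% lower. Without the limit 0 dim members passed in the high FASN line against control (2.68% of probe sets higher, 2.2% lower) or between the lines (3.36% higher in the high FASN line, 3.08% lower).

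Those 4 were Cdk1, Ect2, Birc5 and Bub1. Cdk1, the kinase that starts mitosis, read 46.6 and 42.8 in the high FASN line, 83.3 and 96.6 in the low FASN line, and 18.4 and 4.49 in controls, a difference of 1.99 in the low FASN line (SE 0.348, adjusted p = 0.00964 without the limit). Ect2, a nucleotide exchange factor needed for the cleavage furrow, read 35.2 and 36.2 in the high FASN line, 65.1 and 78.0 in the low FASN line, and 10.3 and 9.01 in controls, a difference of 1.77 (SE 0.303, adjusted p = 0.00896). For both genes the groups stood in the order low FASN, high FASN, control with no overlap. Birc5 (survivin), a subunit of the chromosomal passenger complex, read 56.7 on both high FASN arrays, 90.6 and 63.1 in the low FASN line, and 26.2 and 4.85 in controls, a difference of 1.63 (adjusted p = 0.0383). Bub1, a spindle checkpoint kinase, read 7.47 and 21.8 in the high FASN line, 39.5 and 27.6 in the low FASN line, and 3.90 and 1.05 in controls, a difference of 1.42 (adjusted p = 0.0333). A second probe set of Bub1 gave 0.13 in the low FASN line, with overlapping groups (adjusted p = 0.912 without the limit). The control readings of all 4 genes are so low that a fold change from them depends on the constant added before the logarithm.

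Among the dim members outside those 4, the mitotic kinases Aurka and Plk1 differed from control by 1.0 and 0.77 in the high FASN line and by 1.25 and 1.04 in the low FASN line. The ubiquitin-conjugating enzyme Ube2c differed by 1.24 and 1.37. Kif23, a kinesin of the central spindle, differed by 0.56 in the high FASN line and by 1.56 in the low FASN line. No difference of Aurka, Plk1, Ube2c or Kif23 passed with the limit dropped. The high FASN arrays of Plk1 and Kif23 overlapped the controls. In the low FASN line a second probe set of Aurka gave 0.18, and further ones of Kif23 gave -0.09 and -0.27. The brightest probe sets of Aurkb, Kif11 and Tk1 differed downwards from control in the high FASN line. The remaining dim mitosis genes were the kinases and checkpoint genes Bub1b, Aurkb and Melk, the motor genes Cenpe, Kif11 and Kif20a, and the spindle genes Prc1 and Hmmr. Bub1b, Hmmr and Tyms were the dim members whose low FASN arrays overlapped the controls, and Kif20a was the 1 with both high FASN arrays above both low FASN arrays. Neither of the dim replication genes, thymidylate synthase (Tyms) and thymidine kinase (Tk1), passed without the limit.

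**Figure D2:**
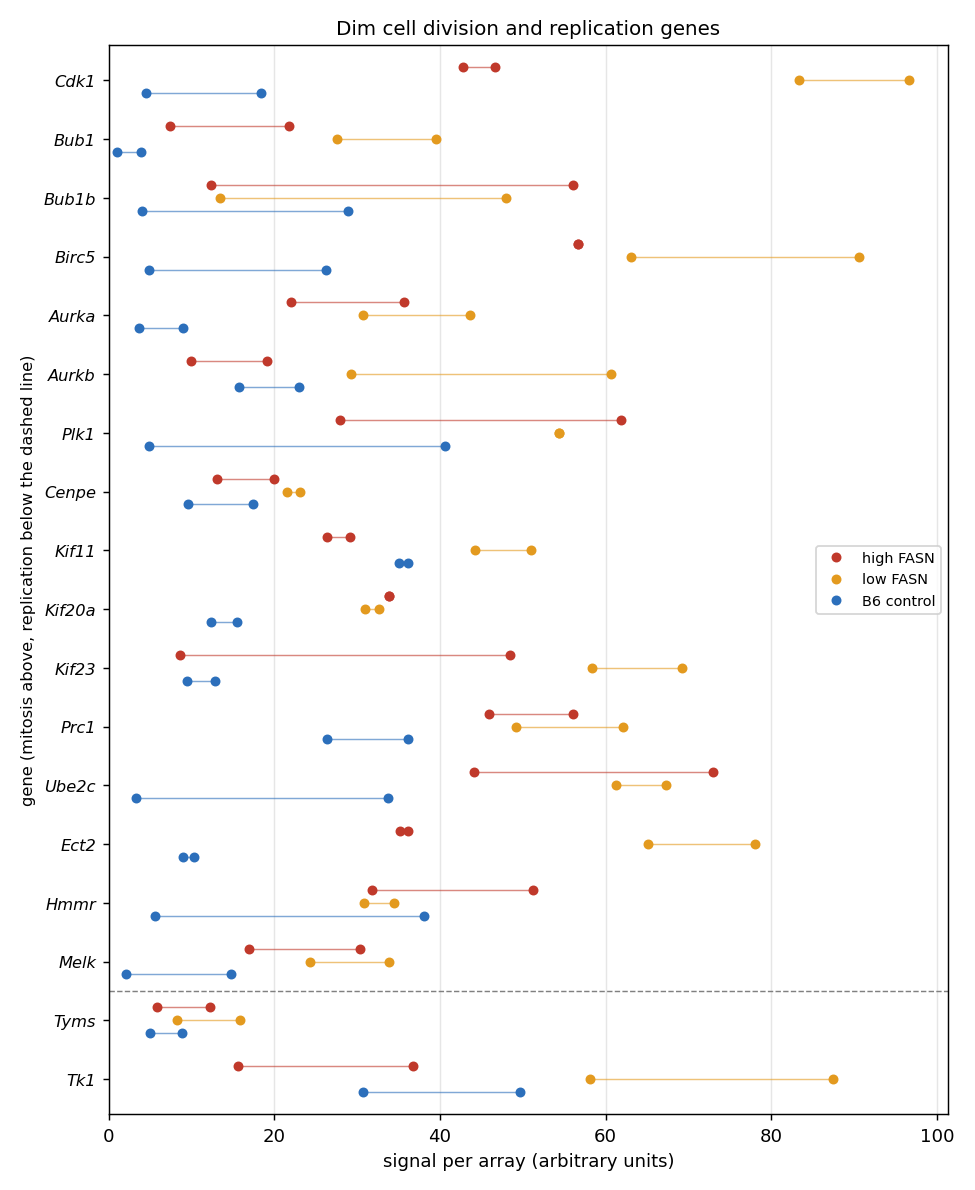
Signal of the 18 dim members on each array, in arbitrary units on a linear axis, 1 point per array, with the high FASN line above the low FASN line and the B6 control. The low FASN points lie to the right of both control points for 15 genes, and all signals lie between 1.05 and 96.6.

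Among the replication genes, the Mcm helicase subunits did not move as a block when each was read by its brightest probe set. Mcm7 read 380 and 425 in the high FASN line, 502 and 508 in the low FASN line, and 306 and 278.5 in controls, and the 3 groups did not overlap. It rose by 0.44 in the high FASN line (SE 0.106, adjusted p = 0.0224) and by 0.76 in the low FASN line (SE 0.106, adjusted p = 0.000879). Its further tested probe sets gave 0.45, 0.44 and 0.51 in the low FASN line, and none passed (adjusted p = 0.0958, 0.0818 and 0.0601). The call in the high FASN line was lost when any array other than high FASN replicate 1 was left out (adjusted p = 0.05 to 0.134), and the call in the low FASN line was lost in none of the settings. Mcm5 read 111.5 and 95.4 in the high FASN line, 152 and 161 in the low FASN line, and 80.8 and 100.1 in controls, and the 2 low FASN arrays were the highest. Mcm3 read 152 and 139.5 in the high FASN line, 194.5 and 238.5 in the low FASN line, and 148.5 and 122 in controls. For both, the low FASN arrays stood above all others and the high FASN arrays overlapped the controls. Mcm5 rose by 0.70 (SE 0.186, adjusted p = 0.0224) and Mcm3 by 0.62 (SE 0.17, adjusted p = 0.0259) in the low FASN line. Both calls were lost without either low FASN array, Mcm5 also without B6 control replicate 1 and Mcm3 also without B6 control replicate 2, with adjusted p values of 0.0526 to 0.187.

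With their brightest probe sets, Mcm2, Mcm4 and Mcm6 did not pass in any comparison. Second probe sets of Mcm2 and Mcm6 passed as higher in the low FASN line (0.85 and 0.63, adjusted p = 0.0123 and 0.0224). A second probe set of Mcm4 gave 0.39 there and did not pass (adjusted p = 0.0692). The values that follow are from the brightest probe sets. Mcm6 read 212.5 and 232 in the high FASN line, 285 and 274 in the low FASN line, and 207 and 241.5 in controls, a difference of 0.30 in the low FASN line (adjusted p = 0.132). Mcm2 differed by -0.19 in the high FASN line and -0.22 in the low FASN line (adjusted p = 0.319 and 0.186), and its control mean was the highest of the 3 groups. Mcm4 read 322 and 540.0 in the high FASN line, 642.5 and 504.5 in the low FASN line, and 485.5 and 528 in controls, so its high FASN arrays lay on either side of the controls. Without high FASN replicate 2 the difference of Mcm4 in the high FASN line was -0.63 (adjusted p = 0.0202), against -0.27 (adjusted p = 0.429) with all arrays. Without that array it also passed between the lines, at -0.79 (adjusted p = 0.00643).

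Pcna had the smallest standard error of the members. It read 1572 and 1528 in the high FASN line, 1969 and 2024 in the low FASN line, and 1398.5 and 1346 in controls, with no overlap between the 3 groups. It rose by 0.54 in the low FASN line (SE 0.0603, adjusted p = 0.000276), differed by 0.17 in the high FASN line (adjusted p = 0.0894), and was lower in the high FASN line than in the low FASN line by 0.36 (high minus low, -0.36, adjusted p = 0.00368). Of the subunits of ribonucleotide reductase, which makes the building blocks of DNA, Rrm2 read 121 and 120.4 in the high FASN line, 154 and 168 in the low FASN line, and 105 and 101.0 in controls. Rrm2 rose by 0.57 in the low FASN line (SE 0.164, adjusted p = 0.0323), a call lost without any 1 of the 4 low FASN and control arrays (adjusted p = 0.0967 to 0.174). Rrm1, the subunit that in mammals is less tied to S phase, differed by -0.02 and 0.02 (adjusted p = 0.942 and 0.924).

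**Figure D3:**
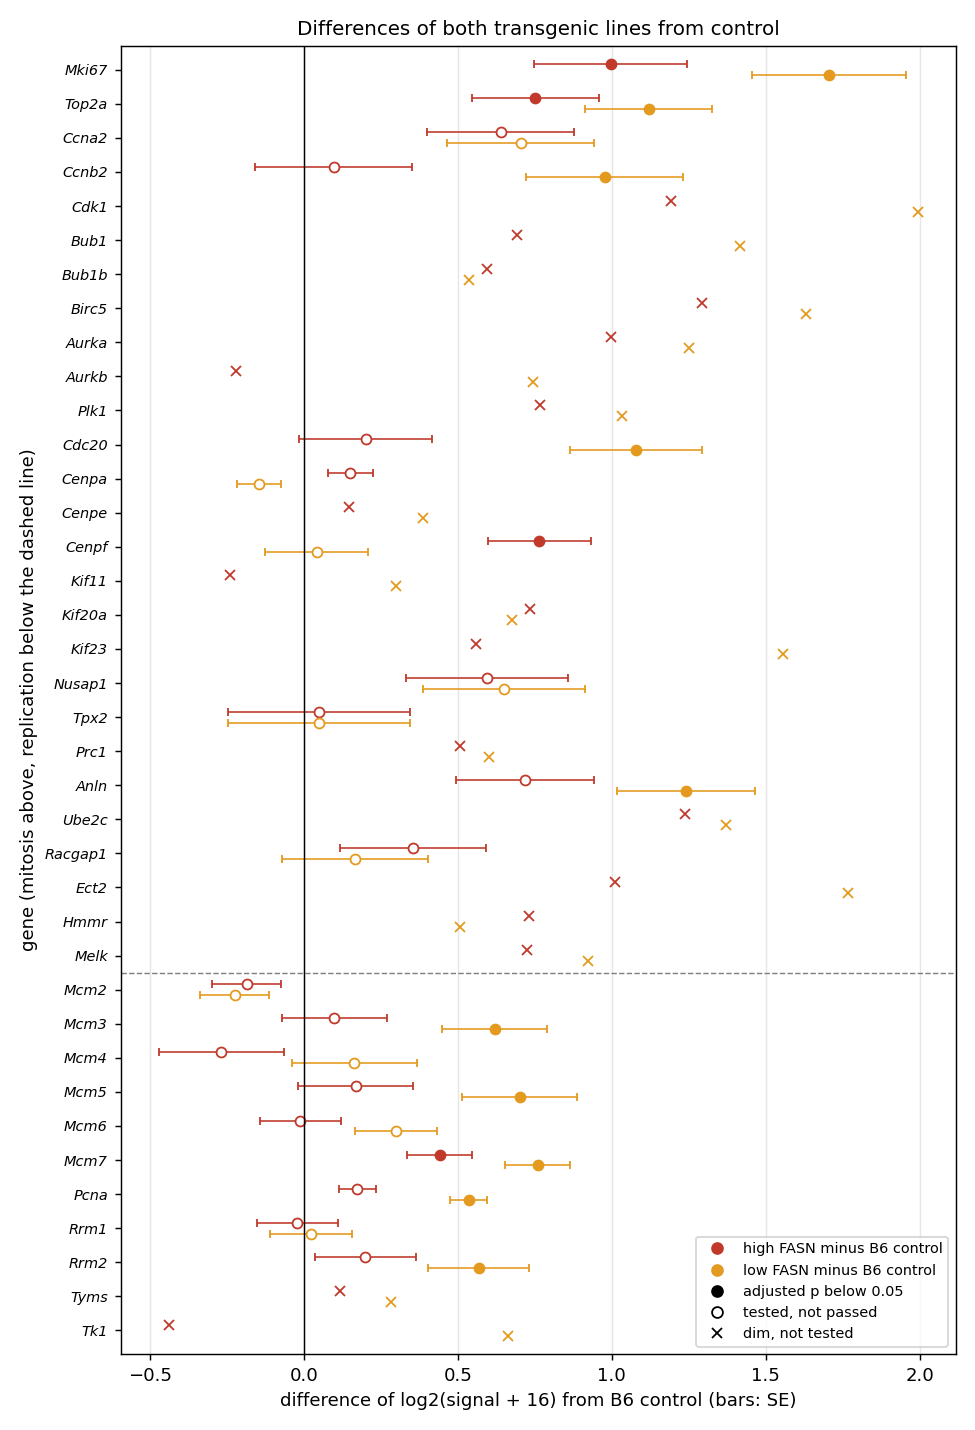
Log2 differences of the 38 measured members from the B6 control, for the high FASN line and the low FASN line, on the log2(signal + 16) scale. Tested members are circles with standard errors, and dim members are crosses without them. Among the tested members, Mki67 is farthest from 0 in the low FASN line (1.71), and Cenpf has 0.76 in the high FASN line with 0.04 in the low FASN line.

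The stretches upstream of these genes carry letters that cell cycle regulators are known to bind. NF-Y binds the CCAAT box, the MuvB complexes bind the CHR element of mitosis genes, and E2F factors bind sites in replication genes. The 250 bases before the first-listed RefSeq start were searched on both strands for CCAAT, for TTTGAA or TTCGAA (CHR), and for TTCCCGC or TTGGCGC (E2F), in 24 mitosis and 10 replication members that the RefSeq promoter table holds (GRCm38.p6). CCAAT was found in 20 of 24 mitosis promoters (83.3%) and 8 of 10 replication promoters (80%), against 36% of the 9300 promoters of genes with a tested probe set and 34.5% of all 27025. The CHR letters were in 9 mitosis promoters (37.5%) and 2 replication promoters (20%), against 11.8% of the promoters of tested genes and 17.4% of all. The E2F letters were in 3 mitosis promoters (12.5%) and 4 replication promoters (40%), against 10.2% and 5.71%. Ccnb1, which has no expression value here, is counted among the 24 mitosis promoters. Of 86 matches in the members, 1 pair of different motifs shared a base. A match is a description of the letters, not a bound site.

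The promoters of 6 members called in the low FASN line are printed, picked because they carry CHR or E2F letters. The other members called there, Anln, Mcm3, Pcna and Rrm2, carry neither, and Anln has no match of any motif. The printed promoters run 5′ to 3′ on the strand of the gene, with the matches in capitals. A motif on the opposite strand appears as its reverse complement, such as ATTGG for CCAAT. The 6 promoters are thus not a sample of the called members. They lie at chr7:135716380-135716629 (minus strand) for Mki67, chr11:99024190-99024439 (minus) for Top2a, chr9:70421555-70421804 (minus) for Ccnb2, chr4:118437344-118437593 (minus) for Cdc20, chr8:75109259-75109508 (plus) for Mcm5 and chr5:138171884-138172133 (minus) for Mcm7, all GRCm38.p6 and all ending at the base before the start.
Mki67: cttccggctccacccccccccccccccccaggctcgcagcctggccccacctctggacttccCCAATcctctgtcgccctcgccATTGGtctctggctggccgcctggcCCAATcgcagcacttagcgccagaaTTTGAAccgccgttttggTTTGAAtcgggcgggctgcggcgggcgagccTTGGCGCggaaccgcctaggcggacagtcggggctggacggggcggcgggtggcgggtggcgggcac
Top2a: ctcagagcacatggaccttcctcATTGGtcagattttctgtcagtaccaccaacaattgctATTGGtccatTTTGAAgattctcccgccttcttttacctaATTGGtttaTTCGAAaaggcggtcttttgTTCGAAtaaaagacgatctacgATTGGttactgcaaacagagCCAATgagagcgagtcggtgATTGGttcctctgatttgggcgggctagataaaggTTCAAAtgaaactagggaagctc
Ccnb2: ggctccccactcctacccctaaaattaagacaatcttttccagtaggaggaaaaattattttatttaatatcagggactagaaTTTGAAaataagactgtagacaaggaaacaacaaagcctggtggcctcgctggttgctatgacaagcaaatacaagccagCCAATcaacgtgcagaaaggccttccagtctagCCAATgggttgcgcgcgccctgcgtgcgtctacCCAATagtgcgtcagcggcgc
Cdc20: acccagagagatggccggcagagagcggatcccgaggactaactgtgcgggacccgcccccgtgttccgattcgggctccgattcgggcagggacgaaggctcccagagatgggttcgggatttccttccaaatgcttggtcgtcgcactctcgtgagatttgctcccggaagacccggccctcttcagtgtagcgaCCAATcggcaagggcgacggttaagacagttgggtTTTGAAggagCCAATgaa
Mcm5: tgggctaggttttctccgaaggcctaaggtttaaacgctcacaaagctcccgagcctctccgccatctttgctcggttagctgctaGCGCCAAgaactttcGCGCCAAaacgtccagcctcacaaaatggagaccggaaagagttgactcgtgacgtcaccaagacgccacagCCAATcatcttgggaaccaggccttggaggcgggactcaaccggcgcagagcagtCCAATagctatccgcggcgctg
Mcm7: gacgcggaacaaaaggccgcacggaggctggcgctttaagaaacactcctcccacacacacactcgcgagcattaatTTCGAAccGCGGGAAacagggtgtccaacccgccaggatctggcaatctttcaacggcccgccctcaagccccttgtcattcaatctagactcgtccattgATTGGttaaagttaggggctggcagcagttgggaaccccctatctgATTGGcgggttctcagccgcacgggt
Mki67 holds 3 CCAAT boxes, 2 CHR matches and an E2F match 67 bases before the start. Top2a holds 6 CCAAT boxes and 4 CHR matches, 2 of each CHR form. Ccnb2 has a CHR match at 167 bases before the start and 3 evenly spaced CCAAT boxes at 87, 54 and 21 bases. Cdc20 has a CHR match at 18 bases between CCAAT boxes at 53 and 8 bases. Mcm5 has E2F matches at 164 and 149 bases with 2 CCAAT boxes nearer the start. Mcm7 has a CHR match at 173 bases, an E2F match at 165 bases and 2 CCAAT boxes at 72 and 26 bases.

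The 38 genes had 89 probe sets in all, and of the 51 further ones 13 could be tested, for 11 genes. Of these, in the low FASN line, 12 differed upwards from control, where 50.9% of all genes did. There 3 passed as higher and 0 as lower, against 13.5% and 10.8% of all tested probe sets. The 3 were second probe sets of Ccna2 (1.19, adjusted p = 0.0185), Mcm2 (0.85, adjusted p = 0.0123) and Mcm6 (0.63, adjusted p = 0.0224). None of these genes had passed with the brightest probe set. For Mcm2 the probe sets disagreed in sign, at 0.85 and -0.22. Of the 13, in the high FASN line, 9 were positive, where 54.4% of all genes were. There 1 passed as higher and 0 as lower, against 8.18% and 6.18% of all tested probe sets. The 1 that passed was a second probe set of Cenpa (1.22, adjusted p = 0.012), where the brightest gave 0.15. A further probe set of Mcm7 gave -0.25 in the high FASN line (adjusted p = 0.374), against 0.44 with the brightest, and was lower in the high FASN line than in the low FASN line (high minus low, -0.76, adjusted p = 0.0149). The second probe set of Cdc20 gave 0.55 in the low FASN line (adjusted p = 0.0773) and -0.17 between the lines (high minus low, adjusted p = 0.606). In the low FASN line second probe sets of Mcm3 (0.28, adjusted p = 0.597) and Rrm2 (0.50, adjusted p = 0.0796) did not pass. The further tested ones of Mcm7 did not pass there either. So no call in the low FASN line was repeated by a further tested probe set of the same gene. Probe sets whose names end in x_at or s_at, among them the brightest of Cdc20, Mcm2, Mcm3, Mcm4, Mcm5, Mcm7 and Rrm2, hold probes that the array maker lists as shared with other transcripts, so their signals may include those.

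Of further mitosis genes outside the set, 50 were measured and 27 tested. In the low FASN line 11 of them were higher than in the control and 1 was lower, where 13.5% of all tested probe sets were higher and 10.8% lower. Cep55, which recruits the abscission machinery, read 42.8 and 51.0 in the high FASN line, 100.2 and 142 in the low FASN line, and 30.5 and 28.4 in controls, a difference of 1.58 in the low FASN line (SE 0.248, adjusted p = 0.00177). It was bright enough to be tested only through the low FASN line, and with the limit dropped it still passed there (adjusted p = 0.0109) but not between the lines (adjusted p = 0.06). The mitotic kinase Pbk rose by 1.19, the Cdk-binding protein Cks2 by 1.08 and the condensin subunit Smc2 by 0.89 (adjusted p = 0.00227, 0.00238 and 0.00384). The microtubule-destabilising protein Stmn1 rose by 0.65 and the Cdk-binding protein Cks1b by 0.39 (adjusted p = 0.00334 and 0.00829). The kinetochore subunit Spc24 fell by 0.73 on the log2 scale (adjusted p = 0.0224). Of the 27, in the high FASN line, 0 passed against control (limma; 8.18% of all higher, 6.18% lower), with 6 higher and 0 lower at an unadjusted p under 0.05 (16.7% and 12.1% of all). Between the lines 1 was higher in the high FASN line (Pttg1, securin, by 0.25) and 6 were lower, among them Cep55 (-1.11), Pbk (-0.91) and the checkpoint protein Mad2l1 (-0.84), where 9.69% of all were higher and 8.87% lower. The median log2 difference over all 50 was 0.30 in the high FASN line and 0.51 in the low FASN line, against 0.03 and 0.01 over all genes.

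Of further replication and repair genes, 45 were measured and 39 tested. The high FASN line had 2 higher and 1 lower, where 8.18% of all tested probe sets were higher and 6.18% lower. The low FASN line had 5 higher and 2 lower, where 13.5% and 10.8% of all were called. These shares of the list lie near or below those of all probe sets. The histone mRNA binder Slbp rose by 0.33 in the high FASN line and by 0.61 in the low FASN line (adjusted p = 0.0358 and 0.00103), and the licensing factor Cdt1 rose by 0.67 in the low FASN line (adjusted p = 0.0159). The polymerase epsilon subunit Pole2 rose by 0.88 in the low FASN line and the clamp loader subunit Rfc4 fell by 0.49 on the log2 scale (adjusted p = 0.018 and 0.0304). Geminin (Gmnn), the inhibitor of Cdt1, read 1933 and 1788 in the high FASN line, 2031 and 2006 in the low FASN line, and 2867 and 2738 in controls. Geminin fell by 0.59 in the high FASN line and by 0.47 in the low FASN line on the log2 scale (adjusted p = 0.000332 and 0.000645), opposite in direction to the called members. The median over the 45 genes was 0.15 in the high FASN line and 0.11 in the low FASN line.

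The cyclins, kinases and inhibitors of the G1 phase, 26 measured and 23 tested, held 4 higher and 3 lower genes in the high FASN line and 5 higher and 2 lower in the low FASN line. The shares of all tested probe sets were 8.18% higher and 6.18% lower in the high FASN line, and 13.5% and 10.8% in the low FASN line. Wee1, the kinase that holds Cdk1 inactive, read 255 and 236 in the high FASN line, 328 and 301 in the low FASN line, and 519 and 618.5 in controls. It fell by 1.16 in the high FASN line (SE 0.12, adjusted p = 0.000309) and by 0.82 in the low FASN line (SE 0.12, adjusted p = 0.00118). The Cdk inhibitor Cdkn1a (p21) fell by 0.53 and 0.66 (adjusted p = 0.0297 and 0.00664). Cdk2, which drives entry into S phase, rose by 0.97 in the low FASN line (adjusted p = 0.00118), with 0.47 in the high FASN line (adjusted p = 0.0565). The antiproliferative genes Btg1 and Btg2 rose in the low FASN line by 0.54 and 0.53 (adjusted p = 0.000228 and 0.00681), and both were lower in the high FASN line than in the low FASN line (-0.57 and -0.41, adjusted p = 0.000382 and 0.0268). Cyclin D2 (Ccnd2) rose by 0.23 in the low FASN line (adjusted p = 0.0103). Cyclin D1 (Ccnd1) fell by 0.40 in the high FASN line (adjusted p = 0.0021), with a difference of 0.05 in the low FASN line (adjusted p = 0.602), and it was lower in the high FASN line than in the low FASN line (-0.45, adjusted p = 0.00118). The Cdk inhibitors Cdkn1c and Cdkn2c rose in the high FASN line by 0.65 and 0.37 (adjusted p = 0.0037 and 0.0269). The growth-arrest gene Gadd45b rose in both lines, by 0.88 and 0.66 (adjusted p = 0.00997 and 0.0234), and Gadd45a rose by 0.48 in the high FASN line (adjusted p = 0.0164).

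Of 18 regulators of the Rb, E2F and MuvB families, 13 were tested. The high FASN line had 0 higher, with 2 higher at an unadjusted p under 0.05 (limma), and 1 lower, where 8.18% of all tested probe sets were higher, 16.7% at the unadjusted cut, and 6.18% lower. The low FASN line had 3 higher and 2 lower, where 13.5% and 10.8% of all were called. The activator E2f3 and the pocket protein gene Rbl1 (p107) rose in the low FASN line by 0.62 and 0.65 (adjusted p = 0.00745 and 0.017), with 0.44 and 0.40 in the high FASN line (adjusted p = 0.0526 and 0.135). E2f6, a repressor, rose by 0.18 in the low FASN line (adjusted p = 0.0498) and was lower in the high FASN line than in the low FASN line (-0.30, adjusted p = 0.0072). The repressor E2f4 fell by 0.81 in the low FASN line (adjusted p = 0.0258). Tfdp2, a dimer partner of E2F proteins, fell by 0.43 in the high FASN line and by 0.25 in the low FASN line (adjusted p = 0.00333 and 0.0266). The median difference over the 18 genes was -0.05 in the high FASN line and 0.05 in the low FASN line.

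**Figure D4:**
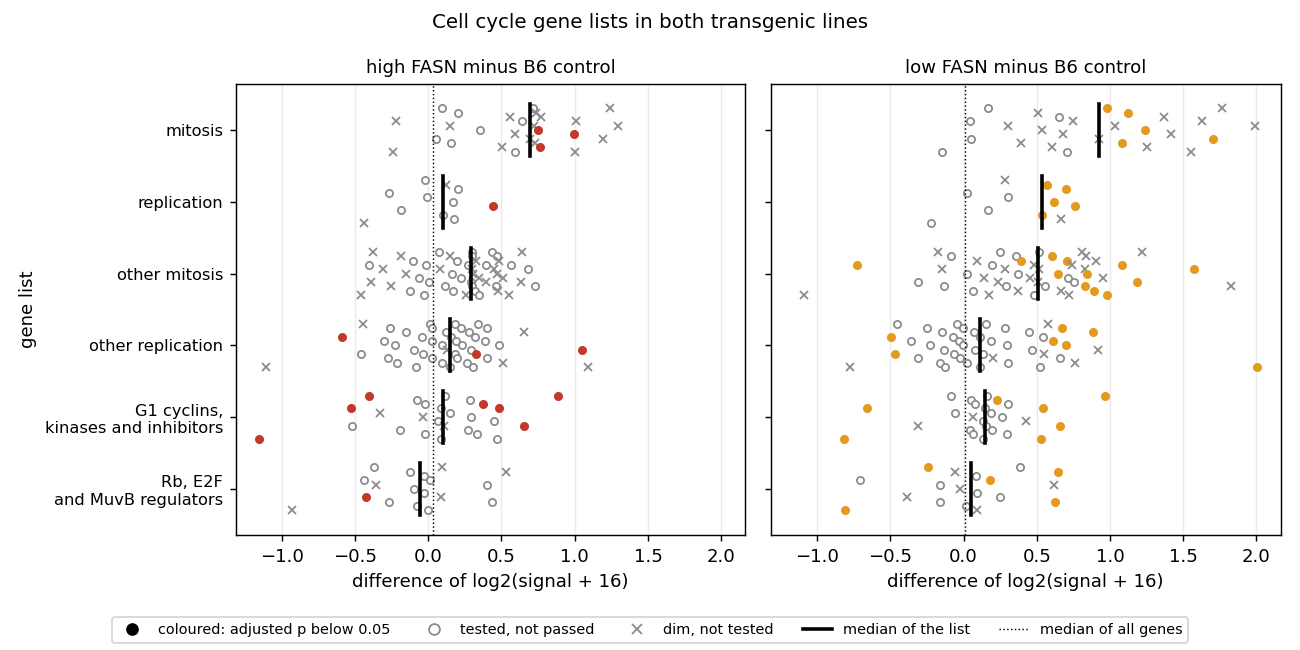
Log2 differences from the B6 control for every measured gene of the mitosis and replication lists, the further mitosis and replication lists, the G1 list and the Rb, E2F and MuvB list, 1 point per gene, in the high FASN line and in the low FASN line. Mitosis members have their median at 0.69 in the high FASN line and at 0.92 in the low FASN line, while the Rb, E2F and MuvB list has medians of -0.05 and 0.05.

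Markers of several other cell types moved in these hearts too. Of the 9 measured B and plasma cell markers, 5 were tested and 3 rose in each line, Ighm, Jchain and Ms4a1. The shares of all tested probe sets called higher were 8.18% in the high FASN line and 13.5% in the low FASN line. The summed signal of the list was 718 to 749 in the high FASN line, 2588 to 2606 in the low FASN line, and 252 to 337 in controls, the same order of groups as for most members. Ighm, the immunoglobulin mu heavy chain, read 333 and 310.2 in the high FASN line, 1711 and 1729 in the low FASN line, and 9.91 and 80.0 in controls. Of the 4 dim markers, Cd79b read 51.3 and 36.7 in the high FASN line, 90.2 and 63.0 in the low FASN line, and 5.58 and 5.69 in controls, and Cd79a stayed at or below 29.0 on every array. With the limit dropped, Cd79b passed in both lines and Pou2af1 in the low FASN line. Without the limit 2.68% of all probe sets were higher in the high FASN line and 5.22% in the low FASN line. The part of this list in the differences of the division genes was not tested.

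Fibroblast markers rose for 5 of 8 genes in the high FASN line and for 7 of 8 in the low FASN line, with summed signals of 37036 to 38152 in the high FASN line, 39837 to 41500 in the low FASN line and 28036 to 28651 in controls. Of 8 endothelial markers, 3 were higher and 0 lower in the high FASN line, with 1 lower at an unadjusted p under 0.05 (limma), and 3 were higher and 1 lower in the low FASN line. Their sums were 7199 to 7503 in the high FASN line, 7630.5 to 7646 in the low FASN line and 6234 to 6364 in controls. Of 10 macrophage markers, 0 were higher and 4 lower in the high FASN line, with 1 higher at an unadjusted p under 0.05, and 3 were higher and 1 lower in the low FASN line. Their sums were 13097 to 13134 in the high FASN line, 16130 to 16663 in the low FASN line and 14533 to 14674.5 in controls, while the mean log2 of the list was 9.54 and 9.56 in the high FASN line, 9.81 and 9.87 in the low FASN line and 9.86 and 9.84 in controls, so the low FASN line stood above control in the sum and overlapped it in the mean log2. For comparison, 8.18% of all tested probe sets were higher and 6.18% lower in the high FASN line, and 13.5% and 10.8% in the low FASN line. The parts of these lists in the differences of the division genes were not tested.

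Muscle markers stood highest in the high FASN line, where 6 of 8 cardiomyocyte genes were higher than in control, with summed signals of 197303 to 219741 in the high FASN line, 160388 to 163500 in the low FASN line and 173673 to 180904 in controls. This is the order of groups seen for Cenpa, and its part there was not tested. Smooth muscle markers rose for 4 of 5 tested genes in each line, adipocyte markers for 5 of 5 in each line, airway and lung markers for 4 of 6 in the high FASN line and 1 of 6 in the low FASN line, and mesothelial markers for 2 of 6 in the high FASN line and 3 of 6 in the low FASN line. In the low FASN line 1 cardiomyocyte, 1 smooth muscle and 1 mesothelial marker were lower. The adipocyte sums were 21304 to 22336 in the high FASN line, 13510 to 13637 in the low FASN line and 2354 to 2515 in controls, and the airway sums were 3200 to 3392 in the high FASN line, 292 to 381 in the low FASN line and 319 to 321 in controls. Of all tested probe sets, 8.18% were higher and 6.18% lower in the high FASN line, and 13.5% and 10.8% in the low FASN line. The parts of these lists were not tested either.

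Of the erythroid precursor markers, 8 were measured and 2 tested, with sums of 2954 to 3142 in the high FASN line, 5048 to 5175 in the low FASN line and 1221 to 1232 in controls. Tfrc, the transferrin receptor, which dividing and iron-demanding cells of many kinds use, read 2958 and 2645 in the high FASN line, 4985 and 4888 in the low FASN line, and 1084 and 1042.5 in controls, and it makes up most of the list's sum. Tfrc was higher in both lines and Alas2 in the high FASN line, where it read 103 and 127, against 18.1 and 59.4 in controls. With the limit on brightness dropped, 1 erythroid marker passed in the high FASN line, against 2 with the limit. Without the limit 2.68% of all 45037 probe sets were higher in that line. Of the 6 dim markers, Epb42, Rhag and Hemgn stayed under 20 on every array, and Slc4a1, Klf1 and Gata1 reached 68.6, 59.9 and 50.7. Of 8 measured T cell markers 2 were tested. Cd8a passed in the low FASN line (1.10, adjusted p = 0.0155), where alone its mean reached the limit, and did not pass with the limit dropped (adjusted p = 0.066). Zap70 lay between 274 and 476 and did not pass. Of the 6 dim markers, Cd3d and Cd4 stayed under 20 on every array, and the others reached 23.9 to 46.3. The T cell sums were 477 to 659 in the high FASN line, 484 to 524 in the low FASN line and 406 to 552 in controls, and overlapped. Of 9 measured thymocyte markers 3 were tested, and Cd1d1 rose in both lines, by 1.46 and 0.69. The thymocyte sums were 1518.5 to 1728 in the high FASN line, 1140.0 to 1184 in the low FASN line and 1083 to 1138 in controls. Of the 6 dim ones, Rag1, Rag2 and Cd8b1 stayed under 20 throughout, and Themis, Dntt and Ptcra reached 63.4, 52.2 and 49.3. The parts of these lists were not tested. Of 8 neutrophil precursor markers 2 were tested, and Ltf rose in the high FASN line. Beside these lists, 8.18% of all tested probe sets were higher and 6.18% lower in the high FASN line, and 13.5% and 10.8% in the low FASN line.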

How the data were processed

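Heart RNA, extracted with the RNeasy Midi kit and made into biotin-labelled cRNA per the labels' protocols, was hybridised to 6 Affymetrix arrays. The authors deposited linear signal intensities. The submitters' processing notes name GCOS, without its version, algorithm or scaling target. Each column has a 2% trimmed mean of 300.002, so no rescaling was applied. Scanner files were not used here.

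Of 45101 probe sets, 64 controls were left out, and 34945 of the other 45037 have 1 gene symbol, 932 have several and 9160 are not listed in the annotation. Symbols were looked up again through RefSeq (GRCm38.p6), which altered 0. Log2(signal + 16) was fitted with limma 3.58.1 (R 4.3.3; lmFit, eBayes with intensity trend, 3 group means, 3 residual and 6.43 prior degrees of freedom) on the 22519 probe sets at or above the median brightness. Benjamini-Hochberg adjustment covered all of them, two-sided, at 0.05. The model was tested on simulated data. Exact permutation of 2 arrays against 2 cannot reach 0.05 and was not used. Figures were drawn with matplotlib 3.10.9 (Python 3.11.15).

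The members and lists were chosen with earlier results of these data known. Named are all members, at most 8 dim ones by value, and, of each further list, called genes among the 6 smallest p of a comparison, plus any single gene behind a count of 1. Marker genes are named where they carry a list's value or define its cell type. A gene of a further list, counted there, is not reported here by name.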

Additional observations from a re-analysis of the deposited data

Results flagged for a closer look

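For 5 members the effects of the lines against the B6 control differed from each other by the test of the high FASN line against the low FASN line (limma, 20 members tested, adjusted over all tested probe sets, of which 9.69% were higher and 8.87% lower). The difference, high minus low on the log2 scale, was -0.88 for Ccnb2, -0.88 for Cdc20 and -0.36 for Pcna, which were lower in the high FASN line. It was 0.30 for Cenpa and 0.72 for Cenpf, which were higher in the high FASN line. Ccnb2 was bright enough to be tested only through the low FASN line, and its call was lost with no filter (adjusted p = 0.135), with the replicate block and whichever array of either FASN line was left out. The calls of Cdc20, Cenpa and Cenpf were lost with the mean of a gene's probe sets, and a second probe set of Cdc20 gave -0.17 (adjusted p = 0.606). All 5 calls, Pcna included, were lost with no intensity trend. Groups of 2 arrays were too small for a test of single outlying arrays.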

How the results depend on the processing

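Over 18 alternative settings, the 20 tested members gave 60 differences, of which 19 were called. Of these, 4 were called in every setting that could test them, all in the low FASN line against control (Mki67, Anln, Mcm7 and Pcna), and 0 changed sign. Of 41 differences that were not called, 5 passed in some setting. The 4 members higher in the high FASN line against control became 2 with no filter (2.68% of all probe sets called) or a filter at the 70th percentile (12.9%, 8 members tested), and 1 with no intensity trend (3.18%), with only the 4 arrays compared (5.62%) or with the mean of a gene's probe sets (7.35%, 14 members). Leaving out an array gave 0 to 3, with 0 without B6 control replicate 2 (3.53%). The 0 members lower became 1 (Mcm4) without high FASN replicate 2, a range of 0 to 1. The 10 members higher in the low FASN line became 2 at the 70th percentile (19.2% of all, 8 members tested), and 5 to 10 with an array left out, with 5 without low FASN replicate 1 or 2 (6.98% and 6.91%); with no filter 10 passed, 4 of them dim members. Between the lines, the 2 members higher in the high FASN line became 0 with no intensity trend (3% of all) or the mean of probe sets (8.63%), and 0 to 2 with an array left out, and the 3 lower became 1 with no filter (3.08%) or at the 70th percentile (14.3%), 0 with no intensity trend (3.43%), and 1 to 3 with an array left out. The causes were not tested.

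Another scaling moved the median of all probe sets by at most 0.052 in size (-0.052). Same-numbered arrays did not deviate together (r of 0.04, 0.03 and 0), so the numbers were not taken as pairs. The fit with the replicate block called 4 higher in the high FASN line, 10 in the low FASN line, and 2 higher and 2 lower between the lines, without Ccnb2 among the lower.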
